A study of Mus musculus with 107 samples.

Results

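The CCR4-NOT complex and its egg adaptor Btg4 were followed through 10 genes, taken by name from 21564 gene symbols counted in single mouse eggs. They are the subunit genes Cnot1, Cnot2, Cnot3, Cnot6, Cnot6l, Cnot7, Cnot8, Cnot10 and Cnot11, and Btg4. All 10 were found, and all 10 passed the filter on low counts. Counts came from 107 C57BL/6J eggs: 29 wildtype, 61 mos -/- and 17 wildtype eggs activated with strontium chloride. Females were 2 to 3 months old and received 5 IU of pregnant mare serum gonadotropin, a hormone that makes follicles grow, 48 h before collection. Germinal vesicle oocytes, which are immature and arrested in meiosis, were collected in 2.5 µM milrinone, which holds that arrest, and then matured in CZB medium without it. Activated eggs spent 2 h in 10 mM strontium without calcium, starting 15 to 16 h after germinal vesicle breakdown. Every egg was taken at 38 to 40 h after that breakdown. Strontium starts egg activation without sperm, so these eggs are no model of the sperm's own contribution. Mutant eggs are divided into groups M1, M2 and M3, whose meaning is not given. Every egg also has a growth number, equally undefined in the sources used here. It is 1 for all M1 and all wildtype eggs, 2 for all M2 eggs and 3 for all M3 eggs. Animal, culture and mos allele are missing from the labels. Batch 1 held 5 wildtype and 9 mutant eggs, and batch 2 held 24 wildtype, 52 mutant and all 17 activated eggs.

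CCR4-NOT is the main machine that shortens the poly(A) tails of messenger RNAs, a step that silences an mRNA and exposes it to decay. Cnot1 is the scaffold, Cnot2 and Cnot3 form the NOT module on it, Cnot7 or Cnot8 and Cnot6 or Cnot6l are the paired catalytic subunits, and Cnot10 and Cnot11 form a module at the scaffold's N-terminal end. Full-grown oocytes and unactivated eggs are largely silent in transcription, and a maturing egg is known to change its mRNAs mostly by tail length, translation and decay. Btg4 is the oocyte member of the BTG and TOB family that brings Cnot7 or Cnot8 to maternal mRNAs, and its stored mRNA is known to be translated during maturation under MAP kinase signalling, of which Mos is the egg's upstream kinase. Smart-seq2 copies RNA from its poly(A) tail and does not mark the strand. A change in tail length and a change in amount therefore cannot be told apart here, and every value is a share of the egg's total.

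Stored mRNAs of oocytes often carry a cytoplasmic polyadenylation element near the 3′ end, through which CPEB1 controls their tails. Since the assay reads tailed RNA, the last 100 bases of the longest coding transcript of each gene were searched on the transcript's own strand for that element, written TTTTAT or TTTTAAT, and for the polyadenylation hexamers AATAAA and ATTAAA (GENCODE M21, GRCm38). The letters of TTTTAAT can overlap a hexamer, but did not do so in these genes. Among the 10 genes, 5 held an element. Of 21817 protein-coding genes, 16.1% held an element in the same window, 72.3% held a hexamer and 12.7% held both. The 30 bases around each element are shown because they mark which of the genes carry one. The capitals mark the element and, where it lies in the 30 bases, the hexamer. Showing Btg4 and Cnot1, whose windows held no hexamer, was decided after the windows were read, and other annotated ends were not searched.
Btg4: agataaatccctTTTTATgtctttttaaaa
Cnot1: aagatgtattgaTTTTATatatgtgagtac
Cnot3: atttatgAATAAAtagTTTTATatgacggc
Cnot7: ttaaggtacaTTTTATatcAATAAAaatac
Cnot8: tatgtTTTTAATtttgtaaAATAAAgattg
They lie in 3′ UTRs, at chr9:51119797-51119826 on the plus strand for Btg4, chr8:95719504-95719533 on the minus strand for Cnot1, chr7:3661075-3661104 on the plus strand for Cnot3, chr8:40493036-40493065 on the minus strand for Cnot7 and chr11:58118552-58118581 on the plus strand for Cnot8. The element precedes the nearest hexamer by 3 bases in Cnot7 and by 7 in Cnot8, and follows it by 3 in Cnot3. The windows of Cnot7 and Cnot8 also held an ATTAAA upstream of the element, at 54 and 80 bases from the end. No element was found in the windows of Cnot2, Cnot6, Cnot6l, Cnot10 and Cnot11. A match is a run of letters and was not tested as a working site.

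Egg totals ran from 44 to 9132471 counts, with medians of 8144112 in wildtype eggs of batch 1 and 207420 in those of batch 2. The 3 eggs under 10000 counts are mutant and are left out of the ranges given per egg, which leaves 104 eggs. No label ties eggs to animals, so eggs were not replicates: counts were summed into 9 sums, 1 for each group and batch, and p-values measure only the spread between these sums, which may be technical. Mos, the targeted gene, stood at 7.32 and 36.8 CPM (counts scaled to the library's size, here with TMM factors) in the wildtype sums of batches 1 and 2 and fell by 2.10 ± 0.40 on the log2 scale in mutant eggs (edgeR quasi-likelihood test, adjusted p = 0.00290). Mos was also lower in activated wildtype eggs, at −2.71 ± 0.75, so a low level is not particular to mutant eggs. By mutant group the folds were −0.96 ± 0.53 in M1 (edgeR, adjusted p = 0.342), −2.50 ± 0.56 in M2 and −2.85 ± 0.57 in M3. Yet 2 eggs labelled M1 held Mos at the level of wildtype eggs: egg 6 gave 110 of the 150 counts of the M1 sum of batch 1 and, at 17.9 raw CPM, exceeded the highest wildtype egg of that batch at 11.2, and egg 21 gave 92 of the 137 counts of the M1 sum of batch 2, at 135.2 raw CPM where wildtype eggs of that batch reached 267. The counts of called members in each comparison are given with and without M1 eggs 6 and 21 below. In batch 2, Mos had a count in only 10 of 24 wildtype eggs, and 1 egg gave 36.1% of that sum. It had a count in 10 of 18 M1, 13 of 16 M2 and 13 of 18 M3 eggs of that batch. Detection of Mos in a single egg of batch 2 therefore does not tell the genotypes apart. The median total of these wildtype eggs was also the lowest of all groups. All 12 oocyte markers had counts in every group, with a median summed level per egg of 11640 raw CPM. The 16 granulosa and cumulus markers summed to a median of 219, from 77.7 to 989, mostly Serpine2, while Ptx3 was at 0 in all eggs and Foxl2 and Fshr had 5 and 6 counts. That summed level had a median of 109.6 in activated eggs (78.3 to 168) and of 205 in wildtype eggs of batch 2 (77.7 to 558), and its part in the results was not tested. The 5 blood markers summed to a median of 11.4, with 3 of them at 0.

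Per kilobase of exon the adaptor was the most abundant of the 10 mRNAs and the CCR4-type enzyme Cnot6 the least. Btg4 had a median of 786 CPM per kilobase over the 9 sums, with a range from 193 to 1267. The CAF1-type enzymes followed, Cnot8 at 244 (119 to 319) and Cnot7 at 158 (117.3 to 196). The order of this pair rests on the exon lengths used, 2636 and 5821 bases over all annotated exons, since Cnot7 had more counts than Cnot8 in each of the 9 sums. Next came Cnot3 at 89.1 (46.2 to 124.8). Cnot2 stood at 31.3, Cnot11 at 21.8, the scaffold Cnot1 at 12.5 and Cnot6l at 8.88. Cnot10 at 2.15 and Cnot6 at 1.87 came last. Other places in this order rest on the exon lengths too. Before scaling by length, Cnot1 was above Cnot11 in each sum, at 239 against 39.5 CPM in activated eggs. The longest coding transcripts of Cnot1 and Cnot6l have 8390 and 3170 bases, against the 17169 and 10313 used here. The ranges of each neighbouring pair in this order overlapped, except those of Cnot6l and Cnot10. Within sums, Cnot7 was above Cnot3 and Cnot6l above Cnot10 in 9 of 9, Cnot1 was above Cnot6l in 7, Cnot10 was above Cnot6 in 4, and the other neighbours kept their order in 8. Exons of Cnot1, Cnot2, Cnot3 and Cnot7 overlap those of other genes, for Cnot3 the gene Leng1 (5.08 to 8.67 CPM) and for Cnot7 the gene Zdhhc2 (56.2 to 98.6 CPM). Reads of such pairs cannot be separated without strand, so the levels of these 4 genes are uncertain.

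**Figure D1:**
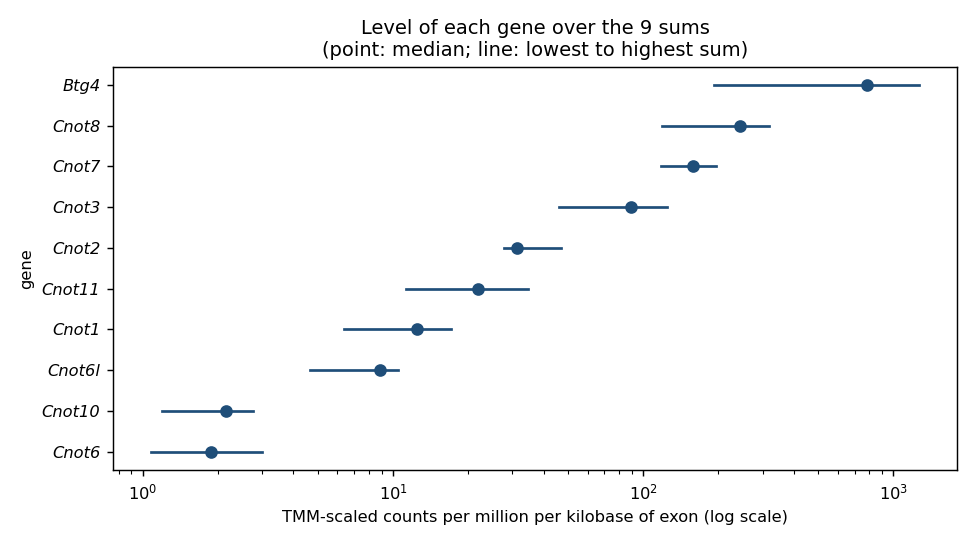
Level of each gene in TMM-scaled CPM per kilobase of exon, on a log axis, with the median of the 9 sums as a point and the lowest to highest sum as a line. Btg4, at a median of 786, sits at the top, and Cnot10 (2.15) and Cnot6 (1.87) sit apart at the bottom.

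The first comparison asked how loss of Mos bears on the mRNAs of the complex. Cnot1 rose in mutant eggs, and Cnot3 and Btg4 fell, so the scaffold and a subunit of its NOT module moved in opposite directions. The other 7 genes did not pass the test. With 1 gene higher and 2 lower of 10, the members can be read against all 13832 genes tested, of which 9.38% were called, 5.36% higher and 4.03% lower. The median log2 fold of the members was 0.09, beside 0.06 over all genes tested. An unadjusted p under 0.05 was found for 4 members and for 22.2% of all genes. Such a small list cannot be set apart from the background by its count. The same 3 members were called without M1 eggs 6 and 21. In batch 2 all wildtype eggs came from Plate3 and all mutant eggs from Plate1 and Plate2, so genotype and plate cannot be told apart there. In batch 1 the library names give 1 plate, scO, while the deposited egg table puts all 5 wildtype and 2 mutant eggs on PlateA and the other 7 mutant eggs on PlateB. Those 2 mutant eggs are M1 egg 6 and M3 egg 1. Growth number differs too, since only M1 eggs share number 1 with wildtype eggs. In M1 over wildtype the log2 folds were 0.47 ± 0.23 for Cnot1, −0.79 ± 0.22 for Cnot3 and −0.52 ± 0.23 for Btg4. Their adjusted p were 0.270, 0.0413 and 0.208 (edgeR).

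**Figure D2:**
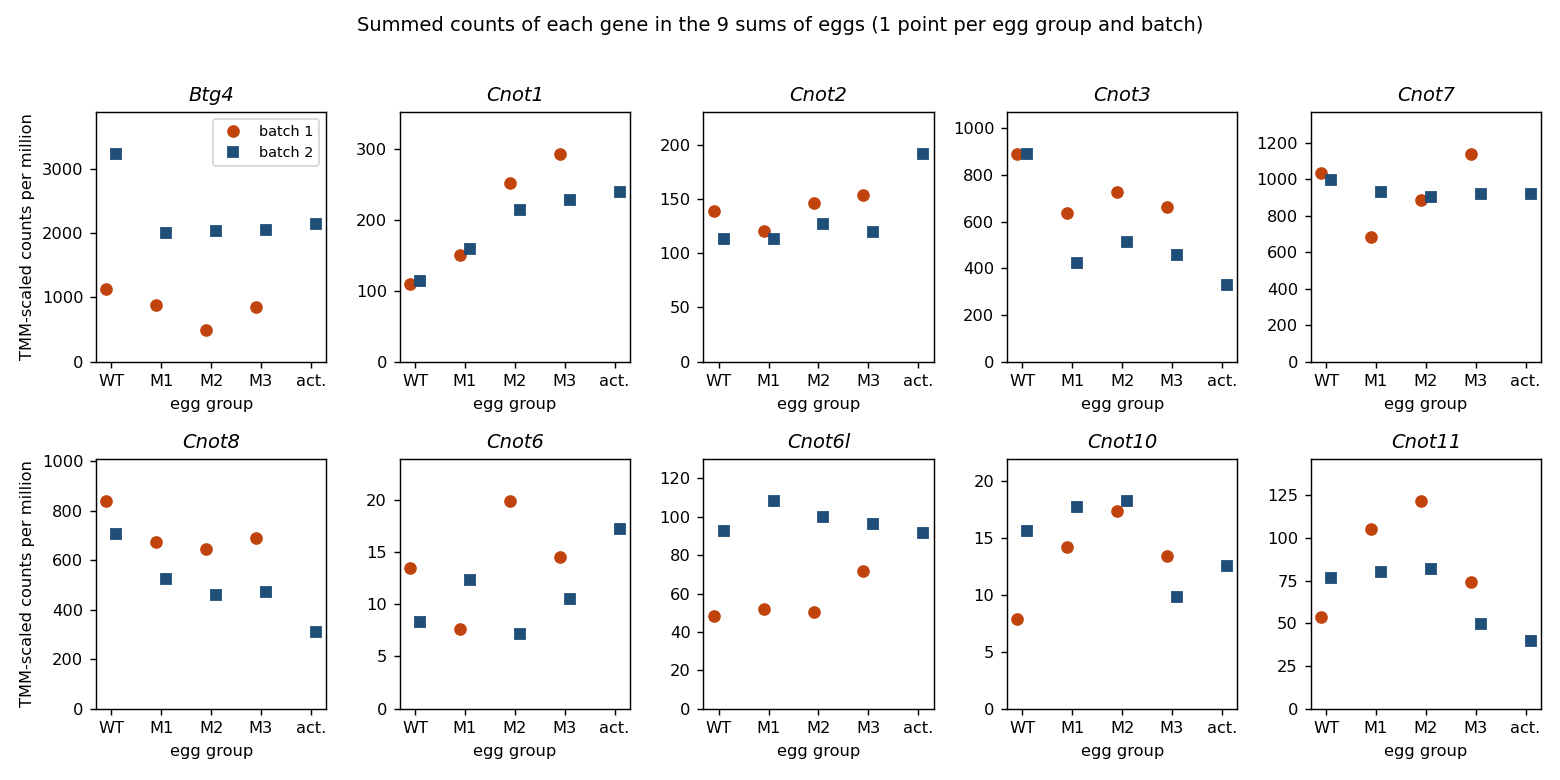
TMM-scaled CPM of each gene (linear axes from 0) in the wildtype (WT), M1, M2, M3 and activated (act.) sums, with circles for batch 1 and squares for batch 2. For Cnot1 every mutant sum lies above the wildtype sum of its batch, and for Cnot3, Cnot8 and Btg4 every mutant sum lies below it.

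Cnot1, on which the whole complex is built, stood at 108.9 and 113 CPM in the wildtype sums of batches 1 and 2. It stood at 150 and 158 in M1, at 252 and 214 in M2, and at 293 and 228 in M3. All 3 mutant sums were above the wildtype sum in both batches, with mutant means of 232 ± 73.8 (SD, n = 3 sums) in batch 1 and 200.1 ± 36.9 in batch 2. The fitted rise was 0.92 ± 0.20 on the log2 scale, or 1.89-fold (edgeR, adjusted p = 0.00712). It was 0.97 without M1 eggs 6 and 21. Within batches the mutant mean was 2.13 and 1.77 times wildtype. The adjusted p was 0.0616 without the wildtype sum of batch 1 and 0.185 without the batch term.

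Single eggs show the same order for Cnot1 in the deeply sequenced batch. The 5 wildtype eggs of batch 1 had 58.6, 116, 88.4, 83.99 and 108.5 raw CPM. The M1 eggs had 112, 172, 167 and 176, the M2 eggs 336 and 158, and the M3 eggs 339, 211 and 309. All mutant eggs but 1 were above the highest wildtype egg. The exception at 112 was M1 egg 6, an egg with wildtype-like Mos. M1 egg 6 and M3 egg 1 are both listed on the wildtype plate, and M3 egg 1 had 339. The other egg with wildtype-like Mos, M1 egg 21 of batch 2, had 0 raw CPM of Cnot1. Cnot3 stood at 506 in egg 6 and 286.5 in egg 21, below the lowest wildtype eggs of their batches at 608 and 393. Btg4, at 1077 and 3588, lay within the wildtype ranges. These 2 eggs therefore do not show whether Mos and Cnot1 levels go together. In batch 2 the Cnot1 values of the groups overlapped widely, with wildtype eggs from 3.87 to 269 (median 69.9) and mutant eggs from 0 to 487 (median 200.0). Thinned to 60000 counts, Cnot1 was detected in 22 of 24 wildtype and 46 of 49 mutant eggs of that batch, so nearly all eggs of both genotypes held the transcript at that depth. Thinned to 30000 counts, it was detected in 17 of 24 wildtype, 14 of 16 M1, 15 of 16 M2 and 17 of 17 M3 eggs.

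Cnot3, which joins Cnot2 in the NOT module, had nearly the same level in both wildtype sums, 889 and 890 CPM. Its mutant sums were 635 and 421 in M1, 727 and 514 in M2, and 661 and 456 in M3. Every mutant sum was below wildtype, and the distance was larger in batch 2, with mutant means of 674 ± 47.7 (SD, n = 3 sums) and 464 ± 47.1. The fitted change was −0.68 ± 0.17, to 0.622 of wildtype (edgeR, adjusted p = 0.0180), and −0.65 without M1 eggs 6 and 21. Raw CPM per egg overlapped between genotypes: in batch 1 wildtype eggs had 895, 764, 608, 835 and 904, and mutant eggs ran from 406 to 844 (median 701). In batch 2 wildtype eggs ran from 393 to 1253 (median 660) and mutant eggs from 221 to 1188 (median 484). The adjusted p was 0.359 at a fold of −0.40 without the wildtype sum of batch 2, 0.0655 with sums per plate and 0.391 without the batch term. Cnot2, its partner in the module, had a fold of 0.05 ± 0.19, with 138.7 and 113 CPM in wildtype sums and 113 to 154 in mutant sums.

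Btg4, the adaptor, had 1132 and 3238 CPM in the wildtype sums, a batch gap of 2.86-fold and the widest of the 10 genes. Mutant sums were 875 and 2010 in M1, 492 and 2038 in M2, and 858 and 2052 in M3. All lay below the wildtype sum of their batch, at 0.655 of it in batch 1 and 0.628 in batch 2. The fitted change was −0.65 ± 0.18, to 0.637 of wildtype (edgeR, adjusted p = 0.0275), and −0.66 without M1 eggs 6 and 21. Its call was lost under 6 of 21 alternatives, against 2 for Cnot1 and 3 for Cnot3. Its fold stayed between −0.59 and −0.66 under 5 of these 6. Without 9 wildtype eggs of batch 2 whose 50 most abundant genes held over 35% of their counts, the fold was −0.21 (adjusted p = 0.678). It missed the threshold too without the M2 sum of batch 1 (adjusted p = 0.0583), the wildtype sum of batch 1 (0.105) or that of batch 2 (0.144), with sums per plate (0.0999) and without the batch term (0.720).

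Egg values of Btg4 were broad in both genotypes. In batch 1 the wildtype eggs had 1199, 1492, 1369, 1007 and 192 raw CPM, so that egg 5 held far less than the others. M1 eggs had 1077, 1134, 691 and 843, M2 eggs 190 and 761, and M3 eggs 565, 1178 and 665. Of the 2 M2 eggs, the second gave 80.5% of the Btg4 counts of that sum. In batch 2 the wildtype eggs ran from 361 to 7068 (median 2243) and the mutant eggs from 333 to 4836 (median 1811), and the upper end of the wildtype range lay above all mutant eggs.

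**Figure D3:**
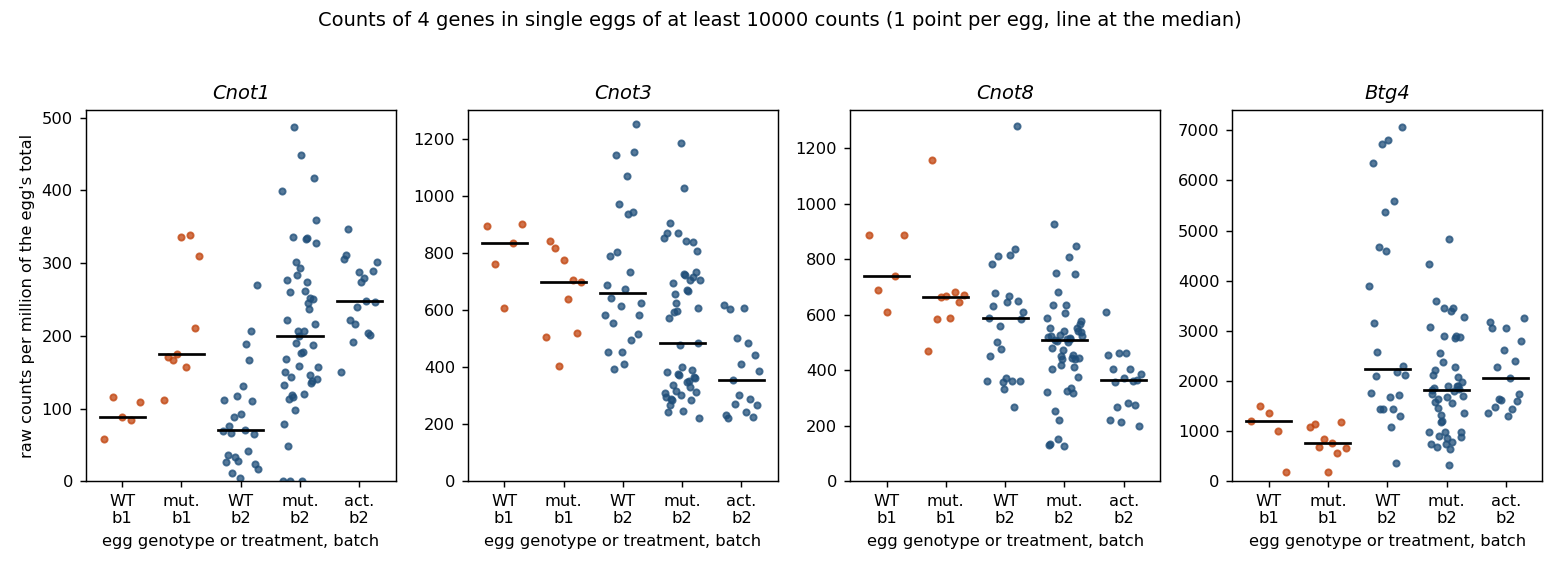
Raw CPM of Cnot1, Cnot3, Cnot8 and Btg4 in each egg of at least 10000 counts (linear axes from 0), by genotype or treatment and batch (b1 or b2), with the median as a line. For Cnot1 the batch 1 medians are 88.4 in wildtype and 176 in mutant eggs, and for Btg4 the wildtype eggs of batch 2 reach 7068 while the mutant eggs reach 4836.

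Among the catalytic genes none passed the test in mutant eggs. Cnot8, a CAF1-type nuclease, came closest, with 840 and 709 CPM in wildtype sums against 676 and 525 in M1, 644 and 462 in M2, and 692 and 470 in M3. All of its mutant sums were below wildtype, with a fold of −0.44 ± 0.17 (edgeR, adjusted p = 0.113; DESeq2, adjusted p = 0.0320). Its paralogue Cnot7 stood at 1034 and 996 in wildtype sums and between 683 and 1141 in mutant sums, with a fold of −0.16 ± 0.18 (adjusted p = 0.677). The CCR4-type pair had folds of 0.13 ± 0.40 for Cnot6 and 0.20 ± 0.22 for Cnot6l. Cnot6l lay between 50.2 and 108.3 CPM in mutant sums and at 48.3 and 92.6 in wildtype sums. Cnot6 was near the limit of detection in batch 2, where the wildtype sum rested on 39 counts (7.17 raw CPM, 95% exact Poisson interval 5.10 to 9.81, which covers counting error only).

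The module at the N-terminal end of the scaffold gave different ratios of sums in the 2 batches. Cnot11 was at 53.7 CPM in the wildtype sum of batch 1 and 105, 122 and 74.2 in its mutant sums, in the order M1 to M3, and at 76.5 against 80.2, 82.1 and 49.8 in batch 2. Cnot10 was at 7.88 against 14.2, 17.4 and 13.4 in batch 1, and at 15.6 against 17.7, 18.2 and 9.77 in batch 2. The mutant mean was thus 1.87 and 1.91 times wildtype for Cnot11 and Cnot10 in batch 1, and 0.923 and 0.977 times wildtype in batch 2. In the wildtype sum of batch 2, 1 egg gave 42.5% of the Cnot11 counts and 1 egg 35.6% of the Cnot10 counts. Egg medians were higher in mutant than in wildtype eggs in both batches. For Cnot11 they were 93.4 against 46.7 raw CPM in batch 1 and 51.4 against 33.2 in batch 2. For Cnot10 they were 14.8 against 7.23 and 10.5 against 0. Mutant sums leaned on single eggs as well, with 1 egg giving 54.9% and 31.9% of the Cnot11 counts of M1 in batches 1 and 2. The part of single eggs in the ratios of either batch was not tested. The fitted folds of Cnot11 and Cnot10 were 0.33 ± 0.25 and 0.41 ± 0.36, neither past the threshold. With eggs thinned to equal depth Cnot11 was called, at 1.08 (adjusted p = 0.0105). From egg to egg Cnot11 reached 1072 raw CPM in a mutant egg of batch 2, at a median of 51.4 over those eggs.

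Whether the mutant fold differed between the batches was tested as an interaction of genotype and batch. Each batch has 1 wildtype sum, so the spread came from the M1, M2 and M3 sums and includes differences between those groups. A lack of calls is therefore weak evidence that the batches are alike. None of the 10 genes was called, and neither was any of 12338 genes (0.0% called by edgeR, with 1147 genes at an unadjusted p under 0.05; DESeq2 called 27 genes higher and 91 lower in batch 2). Without M1 eggs 6 and 21 the count was 0 as well. The differences of Cnot11 (−1.02 ± 0.49, adjusted p = 0.557), Cnot10 (−0.97 ± 0.64) and Cnot3 (−0.54 ± 0.30), batch 2 minus batch 1, are therefore not resolved. Btg4 had a difference of −0.06 ± 0.40 and Cnot1 of −0.27 ± 0.49.

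M1, M2 and M3, which are also the mutant eggs of growth number 1, 2 and 3, were set against each other. This used 9 sums, each of a mutant group on 1 plate, and plates were blocked. No member was called, and 0.0% of 11009 genes were called by edgeR (618 at an unadjusted p under 0.05; DESeq2 called 43 and limma voom 6). Cnot1 had the lowest unadjusted p of the 10, 0.0128, which adjusted to 0.878. It stood at 180, 163 and 153 CPM in the M1 sums of plates Plate1, Plate2 and scO, at 235, 204 and 253 in M2, and at 266, 217 and 308 in M3. M1 was lowest and M3 highest on each plate. Without M1 eggs 6 and 21 the adjusted p of Cnot1 was 0.997, and 1 gene, no member, was called. Btg4 had 2791, 1935 and 892 CPM in M1, 2249, 1930 and 494 in M2, and 2243, 2061 and 902 in M3, so plates differed more than groups.

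Strontium activation was compared with unactivated wildtype eggs next. Cnot1 rose, while Cnot3 and Cnot8 fell to less than 0.5 of the wildtype level, and the other 7 genes, Btg4 among them, did not pass the test. That is 1 gene higher and 2 lower, beside 13% of 13832 genes called in either direction, 5.66% higher and 7.33% lower. With upper quartile scaling the called genes divided into 993 higher and 841 lower, in place of 783 and 1014, and the median over all genes tested moved from 0.15 to 0.30. The members had a median fold of −0.06. The activated eggs form 1 sum on a plate of their own, so plate and treatment cannot be told apart, and their spread is assumed to be that of the other groups. This comparison and the one of mutant eggs use the same wildtype sums. Of the 12 oocyte markers, 6 fell and none rose in activated eggs, and 6 fell and 2 rose in mutant eggs, and their part in the members' values was not tested. The same 3 members were called without M1 eggs 6 and 21, with folds of 1.18 for Cnot1, −1.23 for Cnot3 and −1.06 for Cnot8.

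Cnot1 had 239 CPM in the activated sum, against 113 in the wildtype sum of the same batch. The fitted rise was 1.16 ± 0.28, or 2.24-fold (edgeR, adjusted p = 0.0104). Per egg, activated eggs ran from 151 to 347 raw CPM (median 247), and only the upper part of the wildtype range (3.87 to 269) overlapped them. Cnot2 had 192 CPM against 113, the highest of its 9 sums, with a fold of 0.73 ± 0.29 that missed the threshold (adjusted p = 0.110; 0.0467 with upper quartile scaling). Its activated eggs ran from 156 to 358 raw CPM and the wildtype eggs from 10.9 to 197.

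Cnot3 stood at 329 CPM in the activated sum, the lowest of its 9 sums, against 890 in wildtype. The fitted change was −1.24 ± 0.29, to 0.422 of wildtype (edgeR, adjusted p = 0.00792). Its activated eggs ran from 222 to 620 raw CPM (median 355), with the wildtype eggs at 393 to 1253. Cnot8 had 312 CPM against 709, also the lowest of its sums. Its fitted change was −1.10 ± 0.28, to 0.466 of wildtype (edgeR, adjusted p = 0.0123), and activated eggs ran from 198 to 609 raw CPM (median 365), across the lower part of the wildtype range of 268 to 1282 and below it. Both calls were lost without the wildtype sum of batch 2 (adjusted p = 0.0692 for Cnot3 and 0.0512 for Cnot8) and without the batch term (0.145 and 0.168), and that of Cnot8 with sums per plate (0.0892). Cnot1 was lost only without the batch term (0.158).

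Btg4 stood at 2138 CPM in the activated sum, between the wildtype sum of batch 2 at 3238 and the mutant sums at 2010 to 2052. Its fold over wildtype was −0.59 ± 0.29 (adjusted p = 0.218). Activated eggs were narrow in range, from 1299 to 3253 raw CPM, within the wildtype span of 361 to 7068. Cnot7 had 921 CPM and a fold of −0.15 ± 0.28, Cnot6l 91.6 and 0.03 ± 0.33, Cnot6 17.2 and 0.92 ± 0.61, Cnot10 12.6 and 0.04 ± 0.54, and Cnot11 39.5 and −0.61 ± 0.38.

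**Figure D4:**
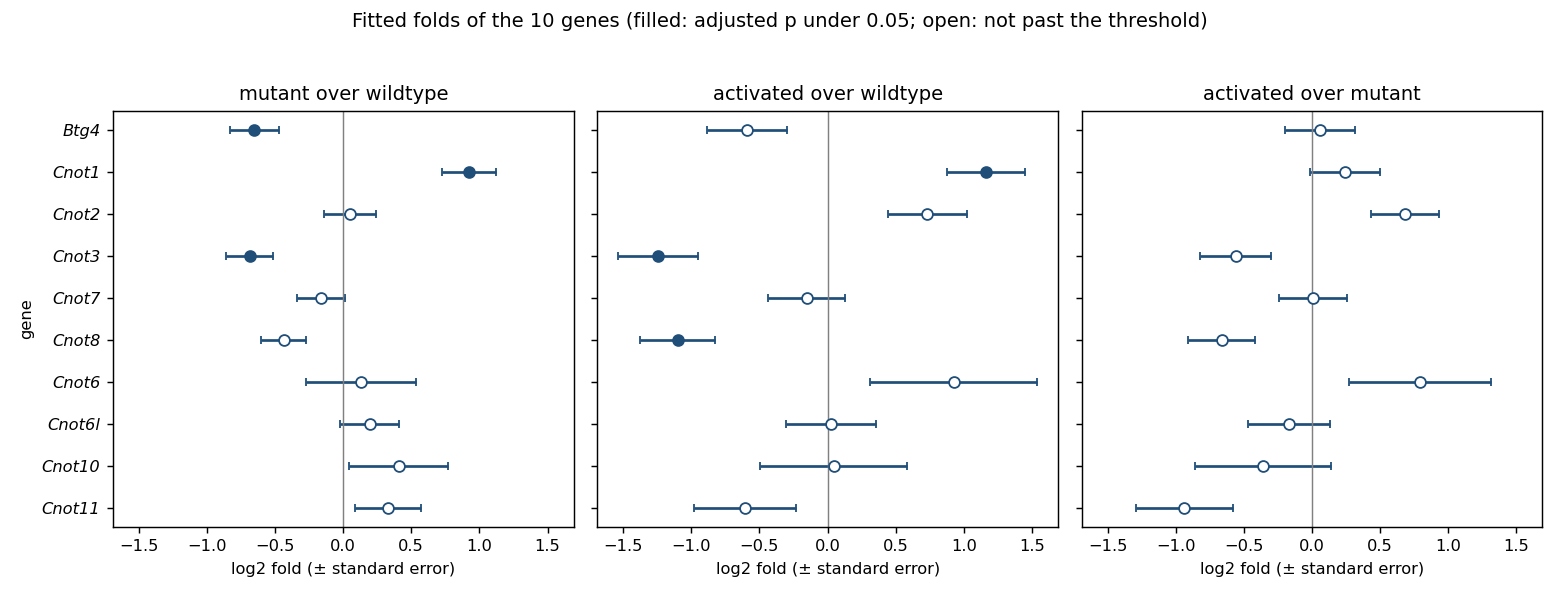
Fitted log2 fold of each gene with its standard error for mutant over wildtype, activated over wildtype and activated over mutant, where filled points have an adjusted p under 0.05. Cnot1 is filled at 0.92 and 1.16 and Cnot3 at −0.68 and −1.24 in the first and second panels, which share the wildtype sums, and no point is filled in the panel of activated over mutant.

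Activated eggs were also compared with mutant eggs, which meets the wildtype sums only through the batch term. No member was called, where 4.84% of 13832 genes were, 1.42% higher and 3.43% lower, and 4 members and 17.9% of all genes had an unadjusted p under 0.05 (DESeq2 and limma voom called none of the members either). No member and 591 genes were called without M1 eggs 6 and 21. Under upper quartile scaling the calls divided into 324 higher and 344 lower, in place of 196 and 474. The 4 members were Cnot2 at 0.68 ± 0.25, Cnot8 at −0.66 ± 0.25, Cnot11 at −0.94 ± 0.35 and Cnot3 at −0.56 ± 0.26, with adjusted p between 0.138 and 0.260. Cnot11 was called with eggs thinned to equal depth, at −1.25 (adjusted p = 0.0302). Btg4 had a difference of 0.06 ± 0.26 and Cnot1 of 0.24 ± 0.26. The median of the members was −0.08, beside 0.05 over all genes tested. The growth number is 1 or 2 in activated eggs, 1 in all wildtype eggs, and 1, 2 or 3 in mutant eggs by group. Activated, wildtype and mutant eggs thus differ in growth number, and its part in the comparisons was not tested. Ranges overlapped between the 8 eggs of number 1 and the 9 of number 2 for each member, with medians of 268 and 246 raw CPM for Cnot1, 384 and 304 for Cnot3, and 1965 and 2051 for Btg4.

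Within each catalytic pair the balance of paralogues is a ratio that does not depend on scaling between samples. Cnot7 made up 35.8% and 38.9% of the length-scaled counts of Cnot7 and Cnot8 in the wildtype sums of batches 1 and 2. Its share was 31.4% and 44.6% in M1, 38.5% and 46.9% in M2, and 42.7% and 46.9% in M3. It was 57.2% in activated eggs, the highest of the 9 sums. Without scaling by length the share of Cnot7 was above 50% in every sum, from 50.2% in M1 of batch 1 to 74.7% in activated eggs, so which of the pair exceeds the other depends on the length used. Per egg the shares spread from 11.6% to 68.5% in wildtype eggs of batch 2 and from 22.8% to 75.5% in activated eggs, with medians of 40.2% and 54.95%, so the groups overlapped. Cnot6l made up 69.6% and 87.7% of its pair with Cnot6 in wildtype sums, 61.8% to 90.0% in mutant sums and 77.3% in activated eggs. Wildtype and mutant sums of batch 2 all had a higher Cnot6l share than those of batch 1. These shares were not tested.

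**Figure D5:**
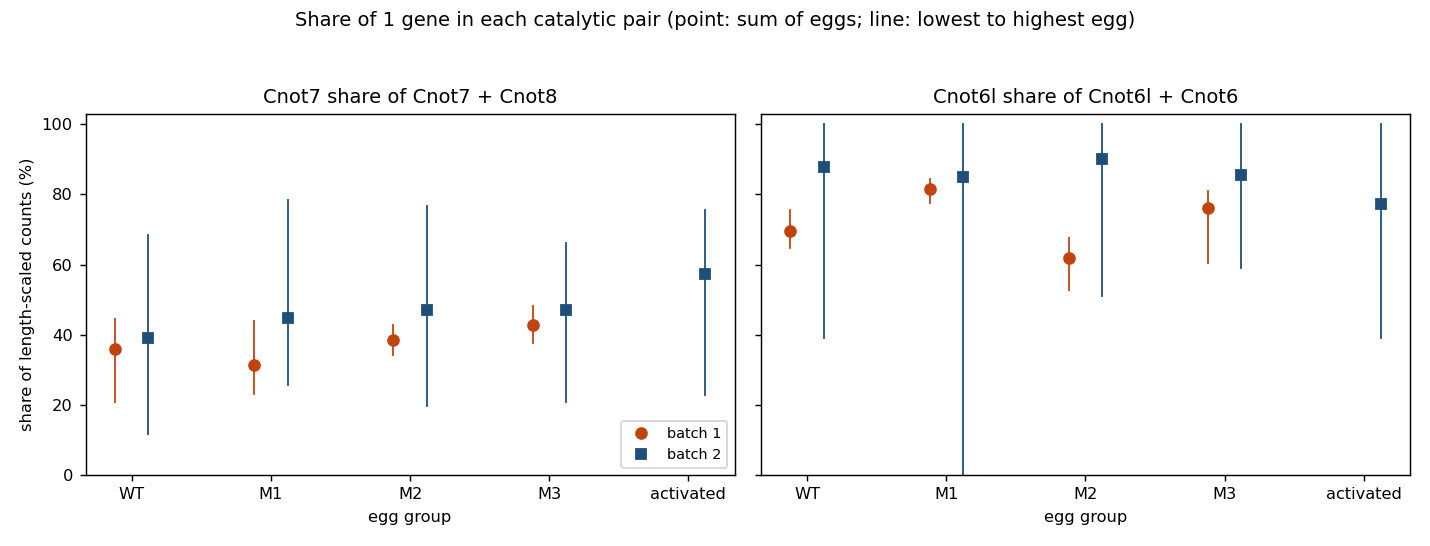
Share of Cnot7 in Cnot7 + Cnot8 (left) and of Cnot6l in Cnot6l + Cnot6 (right), in percent of length-scaled counts, for the sum of each group (points) and from the lowest to the highest egg (lines). The activated sum has the highest Cnot7 share, 57.2%, and the lines of all groups overlap in that panel.

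Likeness of levels was described by Pearson's r of log2 CPM over the 9 sums, which share batch and depth differences. Between members the highest value was 0.93, for Cnot3 and Cnot8, followed by 0.83 for Cnot6l and Btg4. The lowest were −0.64 for Cnot6l and Cnot8 and −0.62 for Cnot3 and Cnot6l, and Cnot1 had −0.50 with both Cnot3 and Cnot8. Among 5692 genes of at least 4 log2 CPM, the 5 most like Btg4 were Omt2b, Omt2a, Fam90a1a, Aqp9 and Khdc1b, with r from 0.98 to 0.99. Omt2a and Omt2b are close copies, so their counts are uncertain. Those most like Cnot1 were Ippk, Tll1, Epc1, Dyrk1a and Cbx5, with r from 0.94 to 0.95.

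Other genes known to work with CCR4-NOT were counted beside the members, to be read against the shares of all genes called, 9.38% in mutant eggs and 13% in activated eggs. In mutant eggs neither of the other subunits, Cnot4 and Cnot9, was called, and none of 20 recruiters of the complex was called (4 at an unadjusted p under 0.05, which 22.2% of all genes had). Of 4 tested relatives of Btg4, Btg2 rose by 1.65 ± 0.49 on the log2 scale from 3.54 and 2.35 CPM in wildtype sums to between 6.24 and 14.4 in mutant sums. Tob2, another anti-proliferative adaptor of the complex, fell by 0.73 ± 0.19, from 327 and 393 CPM to between 161 and 251. The 5 poly(A)-binding proteins included 1 call, Pabpc1l, the embryonic poly(A)-binding protein, which stood at 25.7 and 83.6 CPM in wildtype and 148 to 356 in mutant sums (2.15 ± 0.51). Of 8 other deadenylases, Parn, the poly(A)-specific ribonuclease, rose by 0.94 ± 0.25 and Angel1, a relative of the CCR4-type enzymes, fell by 0.76 ± 0.19. The list medians were 0.20, 0.11, −0.10, −0.01 and −0.08 in the order subunits, relatives, recruiters, binding proteins and deadenylases.

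In activated eggs Tob2 fell too, to 54.2 CPM against 393 in wildtype of the same batch (−2.66 ± 0.34; edgeR, adjusted p = 9.41e-05). Tob2 was also lower than in mutant eggs (−1.93 ± 0.31; edgeR, adjusted p = 0.00153). Of 20 recruiters, 2 rose and 2 fell, beside 5.66% and 7.33% of all genes: Caprin1 at 1.25 ± 0.29, Rc3h1, the RNA-binding protein Roquin, at 1.12 ± 0.32, Ythdf2, a reader of methylated adenosine that binds Cnot1, at −1.04 ± 0.32, and Samd4, a Smaug protein. Samd4 falls outside the rule for named genes and was chosen after its values were seen, since the list had only 4 calls, and it stood at 0.273 CPM against 4.92. Parn rose by 1.33 ± 0.35 and Noct, or Nocturnin, by 1.404 ± 0.42 among 8 other deadenylases. None of 5 poly(A)-binding proteins and neither other subunit was called over wildtype. Yet Pabpc1l stood at 281 CPM against 83.6 in wildtype of the same batch, a fold of 2.345 ± 0.64 beside 2.15 ± 0.51 in mutant eggs. The other folds were 2.12 ± 0.87 for Pabpc1, 0.88 ± 1.08 for Pabpn1, −0.315 ± 0.33 for Pabpc4 and −1.57 ± 0.49 for Pabpn1l. Pabpn1l, an egg poly(A)-binding protein that works with Btg4, was lower in activated than in mutant eggs (−2.24 ± 0.48; edgeR, adjusted p = 0.0191), at 62.0 CPM against 215 to 326 in the mutant sums of batch 2, and Rc3h1 was higher (1.151 ± 0.28; edgeR, adjusted p = 0.0206). The median folds of the lists over wildtype, in the same order, were 0.19, 0.59, 0.08, 0.88 and 0.20, beside 0.15 over all genes tested.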

How the data were processed

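The deposited values were whole-number counts per gene symbol for 107 eggs, not normalised by the authors as far as the file shows. The submitters' processing notes name STAR, HTSeq and GRCm38 (mm10). Their versions, the annotation and the use of strand are not given in the sources used. The 10 genes and the other gene lists were chosen with earlier results of these data known.

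Counts were summed per group and batch (0 columns unmapped) and fitted for group and batch with edgeR 4.0.16 (R 4.3.3): TMM scaling, filterByExpr with a minimum count of 10, robust quasi-likelihood F tests, and Benjamini-Hochberg adjustment over 13832 genes with a threshold of 0.05. The mutant fold is the mean of M1, M2 and M3 over wildtype. A standard error is the log2 fold over the root of its F. CPM are TMM-scaled unless called raw. Fewer genes passed the filter for mutant groups over plates (11009) and for the batch interaction (12338), and plates come from the library names. Lengths and positions come from GENCODE M21. The procedure was tested on simulated data without a batch difference. For mutant over wildtype it called 56% of 50 genes at a log2 fold of 1 and 62% of 50 at −1. At 2 and −2 it called 100%. A missing call is therefore weak evidence that a gene is unchanged.

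Named genes were all 10 members, up to 3 called genes of each other list by p, the 5 genes of at least 4 log2 CPM most like Btg4 and Cnot1, and Mos. Alternatives were DESeq2 1.42.0, voom in limma 3.58.1, scaling by RLE or upper quartile, no filter, thinning to 60000 counts (30000 for detection), other sums, no batch term, eggs left out and each sum left out. Leaving out M1 eggs 6 and 21 was chosen after seeing the data.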

Additional observations from a re-analysis of the deposited data

Results flagged for a closer look

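In the M1 eggs of batch 1, the lowest of 4 Cnot1 values stood far below the rest, at 111.5 raw CPM in egg 6 with the others between 167.0 and 175.6. This is the egg whose Mos counts exceeded those of the wildtype eggs of that batch. The other egg with wildtype-like Mos, M1 egg 21 of batch 2, had 0 raw CPM of Cnot1. Such gaps were looked for in 20 sets of values, the 10 genes in the M1 and in the wildtype eggs of batch 1, and chance alone gives about 1 in 20. Sets from the same eggs are not independent.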

How the results depend on the processing

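No paired analysis was possible because the sums of eggs carry no replicate number, so no replicate block could be fitted. Every called member kept its direction in all alternatives run. Of the member folds over the alternatives and 3 comparisons, 550 kept direction and side of the threshold, 17 lost a call, 4 gained one and 39 changed sign. Each change of sign concerns a gene that was not called, and the cause was not tested.

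Without a batch term, 51, 196 and 35 genes were called for mutant over wildtype, activated over wildtype and activated over mutant, with 0 members in each. With sums per plate these counts were 409, 666 and 161, and 1 member, Cnot1, stayed called in mutant eggs. Leaving out 1 sum at a time gave 755 to 1262 genes and 1 to 3 members for mutant over wildtype, 1433 to 2106 genes and 1 to 3 members for activated over wildtype, and 380 to 1119 genes for activated over mutant. For the last comparison no filter gave 1099 genes, DESeq2 gave 1050, and thinned eggs gave 1 member, Cnot11. Among M1, M2 and M3, no filter called 176 genes, DESeq2 43, voom 6, thinned eggs 14, leaving out M1 eggs 6 and 21 called 1 and leaving out 1 sum 0 to 7. For the batch difference, no filter called 36 genes, DESeq2 1.2e+02 (27 higher and 91 lower) and leaving out 1 sum 0 to 8.

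Folds that changed sign are given in log2. For mutant over wildtype, Cnot2 was −0.0078 with RLE scaling, −0.0081 with DESeq2 and −0.076 with thinned eggs. Cnot6 was −0.028 with voom and −0.41 with thinned eggs, and Cnot7 was 0.11 without the wildtype eggs of concentrated counts. For activated over wildtype, Cnot6l was −0.015 with RLE scaling, −0.014 with DESeq2, −0.12 with thinned eggs and −0.021 where all mutant eggs of a batch were summed. Cnot7 was 0.19 without the concentrated wildtype eggs, and Cnot10 was −0.10 with mutant eggs summed by batch and −0.13 without the concentrated eggs. For activated over mutant, Cnot6l was 0.20 without a batch term, Cnot7 was −0.098 with sums per plate, and Cnot10 was 0.13 with thinned eggs.

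Leaving out 1 sum moved the mutant fold of Cnot2 from −0.056 to 0.085, of Cnot6 from −0.23 to 0.37, of Cnot10 from −0.080 to 0.93 and of Cnot11 from −0.15 to 0.87. The activated fold of Cnot6l ran from −0.11 to 0.074, of Cnot10 from −0.31 to 0.67 and of Cnot11 from −0.96 to 0.048. That of activated over mutant ran from −0.12 to 0.20 for Cnot7 and from −0.039 to 0.31 for Btg4. Depth limits Cnot6 and Cnot10 most, with 39 and 73 counts in the wildtype sum of batch 2.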
